A study of Homo sapiens and Mus musculus with 12 samples.

Results

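The regions described here are the 658 peaks of GFI1 ChIP-seq in K562 cells, 498 from cells with the non-targeting guide (sg-NT) and 160 from cells with a guide against LSD1 (sg-LSD1). They are part of the 12513 peaks in the 5 peak lists analysed from the series. Every peak of both lists was used, and each was put into a class by whether it shared at least 1 bp with a peak of the other list. Of the sg-NT peaks, 51 of 498 (10.2%) did so, and of the sg-LSD1 peaks 51 of 160 (31.9%). These 51 sites, each 1 sg-NT peak paired with 1 sg-LSD1 peak, are called kept. The other 447 sg-NT peaks are called sg-NT only, and the other 109 sg-LSD1 peaks are called sg-LSD1 only.

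K562 is an established human leukemia line with the BCR-ABL1 fusion and an erythroid and megakaryocytic character. Both groups were K562 cells that carried Cas9 and were fixed with DSG and formaldehyde before immunoprecipitation with the same GFI1 antibody. They differed in the guide, which was non-targeting in the sg-NT cells and directed against LSD1 in the sg-LSD1 cells. The labels name no clone, and the cells are taken here as an edited population. Each condition had 1 library, so no value below has a replicate check and no test was made between the libraries. The peak lists hold no measure of the LSD1 protein in the sg-LSD1 cells and so cannot check the depletion, which the study measured as protein by western blot. Shares are given with a 95% Wilson interval in parentheses, which allows for counting error but not for variation between libraries.

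GFI1 is a zinc finger repressor of blood cells that binds DNA at a core of AATC, most often read as AATCAC. Its N-terminal SNAG domain resembles the tail of histone H3 and binds LSD1, a histone demethylase encoded by KDM1A, which brings the CoREST proteins and histone deacetylases to the site. GFI1 is known for its part in neutrophil development and in stem cells, while its close relative GFI1B serves red cell and platelet precursors and recognises the same DNA core. GATA factors such as GATA1 set the enhancers of red cell precursors and of K562 cells, and ETS factors such as SPI1 set those of monocytes and neutrophils.

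Sequences at the summits are shown as examples of how the GFI1 core lies in peaks of each class, and most were chosen because they hold it. They are windows of 50 bp from the plus strand of GRCh38. For the kept and sg-NT only classes the strongest 3 peaks with AATCAC or its reverse complement GTGATT are given, and also the strongest peak without it. For the sg-LSD1 only class the strongest 2 peaks with the core are given. The capitals mark these cores and the GATA core, AGATAA or its reverse complement TTATCT. The first 4 windows are of kept sites, the next 4 of sg-NT only peaks and the last 2 of sg-LSD1 only peaks, each named by the nearest protein-coding gene.
IBA57, chr1:228164645-228164694: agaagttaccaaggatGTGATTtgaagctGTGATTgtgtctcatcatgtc
CXADR, chr21:17454352-17454401: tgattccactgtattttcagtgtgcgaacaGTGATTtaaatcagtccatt
RAB42, chr1:28590176-28590225: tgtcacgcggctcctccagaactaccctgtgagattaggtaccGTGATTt
SPTAN1, chr9:128558493-128558542: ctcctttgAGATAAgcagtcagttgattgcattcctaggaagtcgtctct
FNBP1, chr9:130043760-130043809: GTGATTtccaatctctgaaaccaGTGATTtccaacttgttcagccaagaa
SIMC1, chr5:176197474-176197523: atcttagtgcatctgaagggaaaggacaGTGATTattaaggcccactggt
ZNF77, chr19:2949984-2950033: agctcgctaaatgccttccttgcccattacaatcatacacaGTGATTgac
TIGAR, chr12:4320915-4320964: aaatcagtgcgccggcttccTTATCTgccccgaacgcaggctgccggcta
VHL, chr3:10145867-10145916: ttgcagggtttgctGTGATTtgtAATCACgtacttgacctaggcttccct
WWP2, chr16:69796688-69796737: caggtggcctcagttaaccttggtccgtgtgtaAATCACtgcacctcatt
The windows of SPTAN1 and TIGAR, the strongest peaks of their classes, carry a GATA core and no AATCAC, but both hold the shorter AATC. The window of the strongest sg-LSD1 only peak, nearest to INO80C and not shown, carries none of these. In 1 of the windows shown for each class, those of IBA57, FNBP1 and VHL, the GFI1 core is present more than once.

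The lists give for each peak a fold, which is the number of fragments over the summit against the local background, each with 1 added. The number of fragments was solved from the fold and the p-value of each peak and ranged from 5 to 80 in the sg-NT library (median 11) and from 6 to 53 in the sg-LSD1 library (median 12). The lowest local background, which rises with the number and length of the fragments, was 0.451 fragments in the sg-NT library and 0.547 in the sg-LSD1 library. A summit thus rests on few fragments in both, and a site that is not listed may still be bound below the calling threshold. The paper puts the low number of GFI1 sites in K562 cells down to technical limits of the GFI1 antibodies at hand, which was not tested here. The peak names of the sg-NT list run to 685 and those of the sg-LSD1 list to 419, so that the deposited lists hold 72.7% and 38.2% of the numbered peaks. Which of the missing numbers were removed with the ENCODE blacklist and which by another step was not tested.

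Kept sites had higher folds in sg-NT cells than the sg-NT only peaks had. Their fold in sg-NT cells had a median of 10.5 and ranged from 4.76 to 55.8. The sg-NT only peaks had a median fold of 6.92, from 3.75 to 28.1, and the sg-LSD1 only peaks of 6.32, from 3.80 to 17.8. At the kept sites the fold in sg-LSD1 cells had a median of 6.85 and ranged from 4.33 to 12.9, which is within the range of both other classes. The median number of fragments over the summit was 17 for kept sites in sg-NT cells, 15 for the same sites in sg-LSD1 cells and 11 for each of the other classes. The classes overlapped widely in fold, and strong peaks were found in each.

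**Figure D1:**
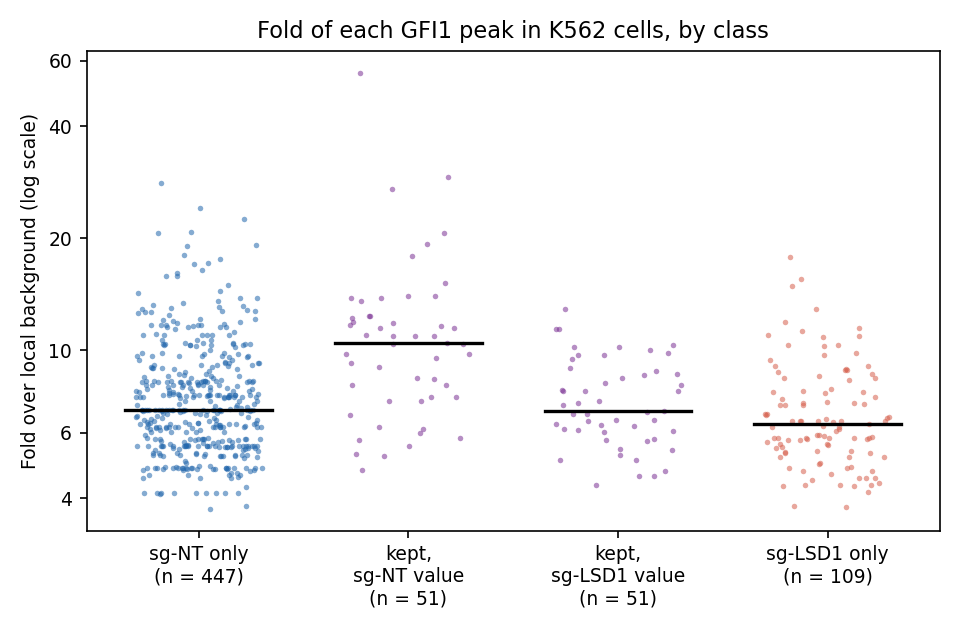
Fold over local background of every GFI1 peak in K562 cells (log axis), with 1 point per peak and a bar at the median, for the 447 sg-NT only peaks, the 51 kept sites in each library and the 109 sg-LSD1 only peaks. The kept sites stand highest in sg-NT cells, with a median of 10.5, while their sg-LSD1 values, with a median of 6.85, lie in the range of the other classes.

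Read by fold, the share of sg-NT peaks that were kept was higher among strong peaks. Of 392 sg-NT peaks with a fold under 10, 23 were kept (5.87%, interval 3.94 to 8.65). Of 97 peaks with a fold from 10 to 20, 24 were kept (24.7%, 17.2 to 34.2), and of 8 peaks from 20 to 30, 3 were kept. The only peak above a fold of 30, in SPTAN1, was kept. Seen from the sg-LSD1 list, the share that lay at a sg-NT peak was 15.0% in the 40 weakest peaks by p-value, 25% and 42.5% in the next sets of 40 and 45.0% in the 40 strongest. In every range of strength that held more than 1 peak, most sg-NT peaks had no counterpart.

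Peak width differed less between classes than fold did. The median width was 356 bp for kept peaks in sg-NT cells, 335 bp for the same sites in sg-LSD1 cells, 327 bp for sg-NT only and 324 bp for sg-LSD1 only peaks. The widest peak, of 5928 bp, was sg-NT only. It lay on chromosome 21 from 8988845 to 8994772, in a cluster of 7 sg-NT peaks between 8986978 and 8999216 that lies 1530711 bp from TPTE, the nearest protein-coding start. No sg-LSD1 peak lay in this cluster, since the only sg-LSD1 peak on chromosome 21 is the kept site near CXADR.

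At the kept sites the fold in sg-LSD1 cells was lower than in sg-NT cells at 39 of 51 sites (76.5%) and higher at 12. The sg-LSD1 fold divided by the sg-NT fold had a median of 0.716 and ranged from 0.200 to 1.67. With the fragments over the summit divided by the lowest background of each library, 38 sites were lower and 13 higher, with a median ratio of 0.708 and a range from 0.268 to 2.58. With the fragments not divided, 28 sites were lower, 19 higher and 4 equal, with a median ratio of 0.857. The local background at the kept sites stood higher above the lowest value of its library in sg-LSD1 cells, at a median of 2.03 times against 1.62 times in sg-NT cells, and its part in the lower fold was not tested. A kept site had to pass the calling threshold in both lists, so these ratios describe only sites that still had a peak.

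The SPTAN1 site, in an intron of the gene for alpha-II spectrin, a protein of the membrane skeleton, was the strongest of all 498 sg-NT peaks. It lay on chromosome 9 from 128558210 to 128558880, 5186 bp from the nearest transcript start. Its fold was 55.8 in sg-NT cells, from 80 fragments, and 11.4 in sg-LSD1 cells, from 26 fragments. The summits were 4 bp apart, so the peak stood at the same place at a ratio of scaled fragments of 0.268, the lowest of the kept sites.
The site 1134 bp from the start of IBA57, a mitochondrial protein of iron-sulfur cluster assembly, had a fold of 29.3 from 43 fragments in sg-NT cells and 8.99 from 24 fragments in sg-LSD1 cells. The site 365 bp from the start of PI16, a peptidase inhibitor, had a fold of 27.1 from 46 fragments and 5.43 from 22 fragments. At both, the difference in fold was larger than that in fragments, with a local background that was higher in sg-LSD1 cells. At PI16 the local background was 0.734 fragments in sg-NT cells and 3.24 in sg-LSD1 cells.

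The next strongest sites of the class lay between genes. The site nearest to KCNRG, a regulator of potassium channels, had 29 fragments in sg-NT cells and 11 in sg-LSD1 cells, with folds of 20.7 and 7.75. The site nearest to CXADR, the receptor of coxsackie and adenoviruses, had 27 fragments and 11, with folds of 19.3 and 7.76. These sites had the lowest ratios of scaled fragments after SPTAN1, 0.313 and 0.336, and at both the local background was at or close to the lowest of its library, so that fold and fragments differed by like amounts. At the site 44071 bp from ZNRF2, a ubiquitin ligase, the fragments were 25 and 19 and the folds 17.9 and 5.41. At the site nearest to NR2F2, a nuclear receptor, the folds were 15.2 and 7.76. The sites nearest to AGRP, agouti-related peptide, and to KCTD6, an adaptor of cullin ubiquitin ligases, both had a fold of 14.03 from 22 fragments in sg-NT cells. In sg-LSD1 cells the fold was 10.2 from 19 fragments at AGRP and 6.11 from 15 fragments at KCTD6. Like the sites of SPTAN1, IBA57 and PI16, these sites overlapped an LSD1 peak.

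A few sites were about equal in both libraries or stood higher in sg-LSD1 cells. The promoter peak of NBPF1, with a fold of 10.9 in sg-NT cells and 10.0 in sg-LSD1 cells, had 38 and 53 fragments. NBPF1 belongs to a family of near-identical copies, so its fragments may be shared between copies. The 3 sites with the highest ratios of scaled fragments all lay in introns. The site in PC, pyruvate carboxylase, had 8 fragments in sg-NT cells and 25 in sg-LSD1 cells, with folds of 5.19 and 7.81 (ratio of scaled fragments 2.58). The site in BCL2L11, which encodes the pro-apoptotic protein BIM, had 8 fragments and 22, with folds of 5.81 and 9.70 (ratio 2.27). The site in GARRE1 had 8 fragments and 21, with folds of 6.20 and 8.40 (ratio 2.17). All 3 had fewer fragments than the median of the sg-NT list, and none of the 3 lay at an LSD1 peak.

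At BCL2L11 the summits of the 2 libraries were 84 bp apart, so the windows at both are shown, again in 50 bp of the plus strand of GRCh38 with the GFI1 and GATA cores in capitals. This pair was chosen after its values were seen.
BCL2L11 in sg-NT cells, chr2:111162843-111162892: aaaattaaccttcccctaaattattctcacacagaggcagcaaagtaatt
BCL2L11 in sg-LSD1 cells, chr2:111162927-111162976: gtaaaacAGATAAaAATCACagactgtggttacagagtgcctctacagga
The window of sg-LSD1 cells holds a GATA core next to a GFI1 core, and the window of sg-NT cells holds neither. Both cores lie inside the sg-NT peak too, which runs from 111162801 to 111163048, and a window of 200 bp at its summit holds both. With 8 fragments over the sg-NT summit, its position is less certain than that of the sg-LSD1 summit. Over all kept sites the summits were a median of 39 bp apart, from 0 to 436 bp, and at 30 of 51 sites they were at most 50 bp apart.

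**Figure D2:**
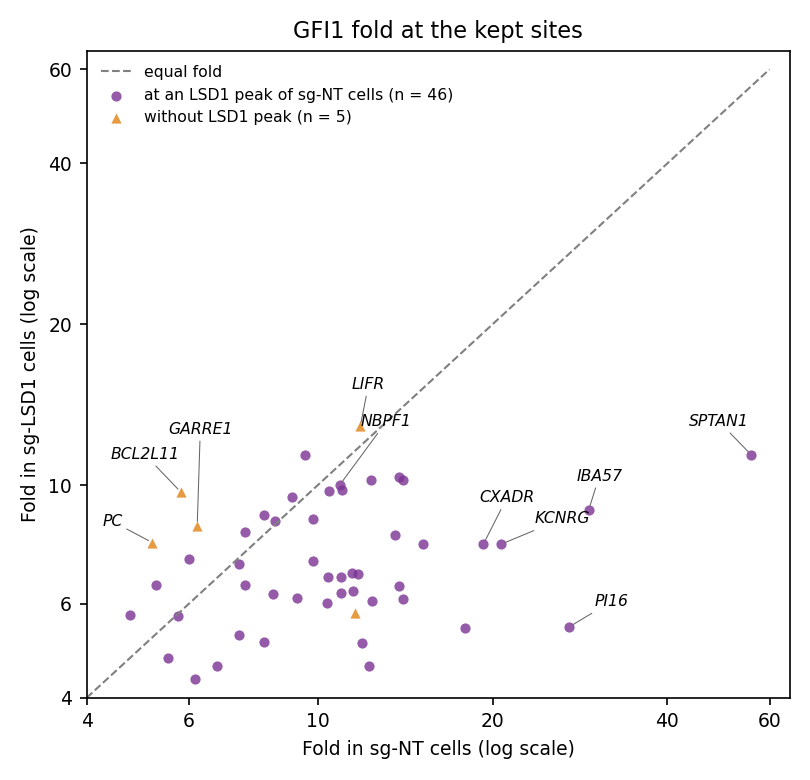
GFI1 fold at the 51 kept sites in sg-NT cells (horizontal axis) and in sg-LSD1 cells (vertical axis), both on a log scale, with 1 point per site, circles for the 46 sites at an LSD1 peak and triangles for the 5 without. Of the 51 sites, 39 lie below the dashed line of equal fold, SPTAN1 farthest to the right at 55.8 and 11.4, while PC, BCL2L11 and GARRE1 lie above it at the left.

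Split by LSD1, which was done after the values were seen, 37 of the 46 kept sites that overlapped LSD1 had fewer scaled fragments in sg-LSD1 cells and 9 had more, with a median ratio of 0.691. Of the 5 kept sites without an LSD1 peak, 1 had fewer and 4 had more, with a median ratio of 2.17. The 4 were the sites in PC, BCL2L11 and GARRE1 and the one nearest to LIFR, the receptor of leukemia inhibitory factor, with folds of 11.8 and 12.9. The other was the site nearest to HELT, with folds of 11.6 and 5.77. The sites without LSD1 were also weaker in sg-NT cells, with a median fold of 6.20 against 10.7. A low sg-NT value raises the ratio by its construction, since it is the divisor. Split by sg-NT fold, 24 of the 26 kept sites at or over the median had fewer scaled fragments in sg-LSD1 cells and 2 had more. Of the 25 sites below the median, 14 had fewer and 11 had more. The part of the sg-NT value in the split by LSD1 was not tested.

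By place the classes were close to each other. Promoter summits, those no more than 1000 bp from a protein-coding transcript start, made up 9.80% of kept (5 of 51, interval 4.26 to 21), 12.3% of sg-NT only (55 of 447, 9.58 to 15.7) and 11.0% of sg-LSD1 only peaks (12 of 109, 6.41 to 18.3). Introns held 47.1%, 42.5% and 45.9%, and intergenic space 39.2%, 44.3% and 41.3%. Exons held 2, 4 and 2 peaks. The median distance to the nearest start was 16702 bp for kept, 16923 bp for sg-NT only and 21691 bp for sg-LSD1 only peaks, and 13.7%, 13.9% and 15.6% lay over 100 kb away. The intervals of the classes overlap in each place, so that at these numbers no difference in place was detectable.

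The sg-LSD1 only class stood apart in how many of its peaks lay at a peak of LSD1, which was mapped only in sg-NT cells. Of the kept sites 46 of 51 did so (90.2%, interval 79.0 to 95.7), of the sg-NT only peaks 344 of 447 (77.0%, 72.8 to 80.6) and of the sg-LSD1 only peaks 25 of 109 (22.9%, 16 to 31.7). The intervals of the kept and sg-NT only classes overlap, and that of the sg-LSD1 only class lies below both. The LSD1 peaks themselves were strongest at the kept sites, with a median LSD1 fold of 13.5, then at sg-NT only peaks with 11.7 and at sg-LSD1 only peaks with 7.54. All 6548 LSD1 peaks had a median fold of 6.99. LSD1 and sg-NT GFI1 were mapped in cells with the same guide, in which the sg-LSD1 only sites by definition had no GFI1 peak.

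In THP1 cells, a human line of monocytic leukemia, the list of GFI1 peaks shows where the factor binds in another blood cell. A THP1 GFI1 peak lay at 29.4% of kept sites (15 of 51, interval 18.7 to 43.0), 14.8% of sg-NT only (66 of 447, 11.8 to 18.4) and 21.1% of sg-LSD1 only peaks (23 of 109, 14.5 to 29.7). A THP1 GFI1 peak without an LSD1 peak in K562 cells was found at 2 kept sites, at 12 sg-NT only peaks (2.68%, 1.54 to 4.63) and at 15 sg-LSD1 only peaks (13.8%, 8.52 to 21.5). Neither overlap was found for 3 kept sites, for 20.4% of sg-NT only peaks (91 of 447, 16.9 to 24.3) and for 63.3% of sg-LSD1 only peaks (69 of 109, 53.9 to 71.8). Most sg-LSD1 only peaks thus overlapped none of the other GFI1 and LSD1 lists analysed.

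**Figure D3:**
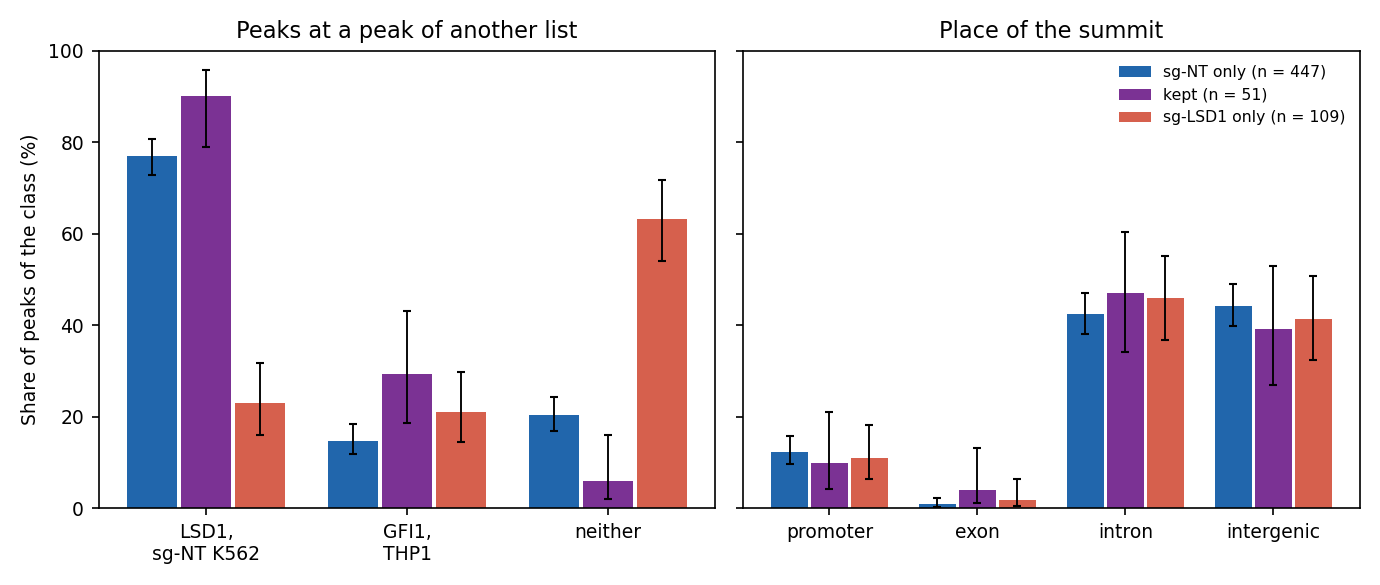
Share of the peaks of each class (vertical axis, percent, with 95% Wilson intervals as bars) at a peak of another list (left) and by place of the summit (right), for the 447 sg-NT only peaks, the 51 kept sites and the 109 sg-LSD1 only peaks. The sg-LSD1 only class stands apart in the overlap with LSD1, at 22.9% against 77.0% and 90.2%, and the intervals of the classes overlap in each place.

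Of the sg-LSD1 only peaks, few were shifted copies of sg-NT peaks. A sg-NT GFI1 summit lay within 10 kb of 2 of the 109 and within 100 kb of 11, and the median distance to the nearest one was 1778481 bp. The 447 sg-NT only peaks had 418 nearest genes, which are 2.12% of all protein-coding genes, and the 109 sg-LSD1 only peaks had 102, or 0.518%. Both classes had 5 of these genes in common, which are 1.20% of the former and 4.90% of the latter. These were CUBN, EPAS1, LPCAT1, TENT5C and TUSC3. EPAS1 encodes the hypoxia-inducible factor HIF-2 alpha and had an intronic sg-NT peak with a fold of 5.64, from 15 fragments, and an intronic sg-LSD1 peak with a fold of 6.32, from 10 fragments. TENT5C, a poly(A) polymerase, had a sg-NT peak with a fold of 10.4 in the gene and a sg-LSD1 peak with a fold of 8.85 outside it.

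Motif cores were searched in the 50 bp windows at the summits, on either strand, and compared with windows 2000 bp to either side of the same peaks. The GFI1 core AATCAC was found in 21.6% of kept windows (11 of 51, interval 12.5 to 34.6) against 4.90% of their flanking windows. It was found in 8.50% of sg-NT only windows (38 of 447, 6.26 to 11.5) against 3.24%, and in 10.1% of sg-LSD1 only windows (11 of 109, 5.73 to 17.2) against 3.67%. The share at the kept sites was highest, above the interval of the sg-NT only class. Most windows of every class held no AATCAC, as did those of THP1 GFI1 peaks, of which 10.1% held it. In the LSD1 list the share was 2.47%.

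The GATA core AGATAA was found in 19.6% of kept windows (10 of 51, interval 11.0 to 32.5), 13.2% of sg-NT only windows (59 of 447, 10.4 to 16.7) and 11.0% of sg-LSD1 only windows (12 of 109, 6.41 to 18.3). In the flanks the shares were 2.94%, 2.46% and 2.75%. The GATA core was thus more frequent at the summit than beside it in each class, with overlapping intervals between the classes. In the THP1 GFI1 list its share was 2.37%, close to the flanks there at 2.98%. The GATA core was thus above its flanks in the K562 GFI1 lists, with and without the guide against LSD1, and not in the THP1 list.

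The ETS core GGAAGT differed between the classes in another way. It was found in 2.91% of sg-NT only windows (13 of 447, interval 1.71 to 4.91), close to the flanks at 2.35%. In sg-LSD1 only windows its share was 11.0% (12 of 109, 6.41 to 18.3) against 1.38% in the flanks (0.469 to 3.97). In kept windows it was 9.80% (5 of 51, 4.26 to 21) against 2.94%. In the THP1 GFI1 list the share was 7.08%, and in the THP1 list of SPI1, an ETS factor, 52.1%. In these windows of 50 bp the intervals of the sg-LSD1 only and sg-NT only classes do not overlap, but in windows of 200 bp they do. No test was made between the libraries, and the core was singled out after the shares of all 7 cores were seen.

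The 12 sg-LSD1 only peaks with an ETS core, named here after their values were seen, lay nearest to TENT5C, EED, EHBP1, HNMT, ITGA4, FBXW7, S100Z, H4C5, CRYBG1, SOX7, TOX and TEX10. EED is a subunit of Polycomb complex PRC2, and its peak lay at the promoter with a fold of 5.29. ITGA4 encodes an integrin of blood cell adhesion, and FBXW7 the substrate adaptor of a ubiquitin ligase. By p-value the strongest of these peaks was in CRYBG1, with a fold of 11.5 from 29 fragments, followed by the one in S100Z, a calcium-binding protein, with a fold of 11.3 from 20 fragments. Of the 12, 5 held the longer core GAGGAAGT that SPI1 prefers, and this core contains GGAAGT. The longer core was counted in these 12 windows only, so there is no share of flanks or other classes to set beside it. The GFI1 core was in 0 of the 12 windows. An LSD1 peak lay at 4 of them, a THP1 GFI1 peak at 3 and a THP1 SPI1 peak at 1. A THP1 SPI1 peak lay at 2 of all 109 sg-LSD1 only peaks, 2 of 51 kept sites and 3 of 447 sg-NT only peaks.

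Of the other cores, the RUNX core TGTGGT was in 11.8% of kept, 5.59% of sg-NT only and 5.50% of sg-LSD1 only windows, against 3.92%, 2.91% and 4.13% in the flanks. The AP-1 core TGANTCA was in 4.92% of sg-NT only windows (22 of 447, interval 3.27 to 7.34) against 1.90% in the flanks, and in 1 of 51 kept windows. It was in 0 of 109 sg-LSD1 only windows, which allows a share of up to 2.75%, taken as 3 counts of the total. The CTCF core was in 0 of 51, 1 of 447 and 1 of 109 windows, and the count of 0 allows up to 5.88%. The GC box GGGCGG was in 1.96%, 3.13% and 0.917%. A window without a core holds only no such letters, and nothing follows from it on the factor. The base composition of the windows differed little within a class, with a median of 46% G and C in kept windows and 46% in their flanks, 48% and 45% for sg-NT only and 42% and 42% for sg-LSD1 only peaks.

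The share of sg-NT peaks that were kept was higher with the GFI1 core than without it, which was not particular to this core. Of the 49 sg-NT peaks with the core, 11 were kept (22.4%, interval 13.0 to 35.9), and of the 449 without it 40 (8.91%, 6.61 to 11.9). Peaks with the core were also stronger, with a median −log10 p of 16 against 10.6. Within the stronger 50% of the list by p-value the shares kept were 24.3% (9 of 37, 13.4 to 40.1) with the core and 14.6% (31 of 212, 10.5 to 20.01) without it. Within the weaker 50% they were 16.7% (2 of 12, 4.70 to 44.8) and 3.80% (9 of 237, 2.01 to 7.06). At either strength the share was higher with the core, and the intervals overlap. Peaks with the core were still stronger within each part, with a median −log10 p of 18.2 against 15.8 and of 9.42 against 8.19. With other cores the shares kept were 27.8% for ETS (5 of 18, 12.5 to 50.9), 19.4% for RUNX (6 of 31, 9.19 to 36.3) and 14.5% for GATA (10 of 69, 8.07 to 24.7). With the AP-1 core 1 of 23 was kept.
Binding in THP1 cells went with being kept as well, at 18.5% (15 of 81, 11.6 to 28.3) of sg-NT peaks at a THP1 GFI1 peak against 8.63% (36 of 417, 6.30 to 11.7) of the others. Among the stronger 50% of peaks the shares were 22.2% and 14.4%, and among the weaker 50% they were 11.1% and 3.60%. By place, 8.33% of the sg-NT peaks at promoters, 11.2% of those in introns and 9.17% of those between genes were kept, with overlapping intervals. Of the 6 sg-NT peaks in exons, 2 were kept.

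**Figure D4:**
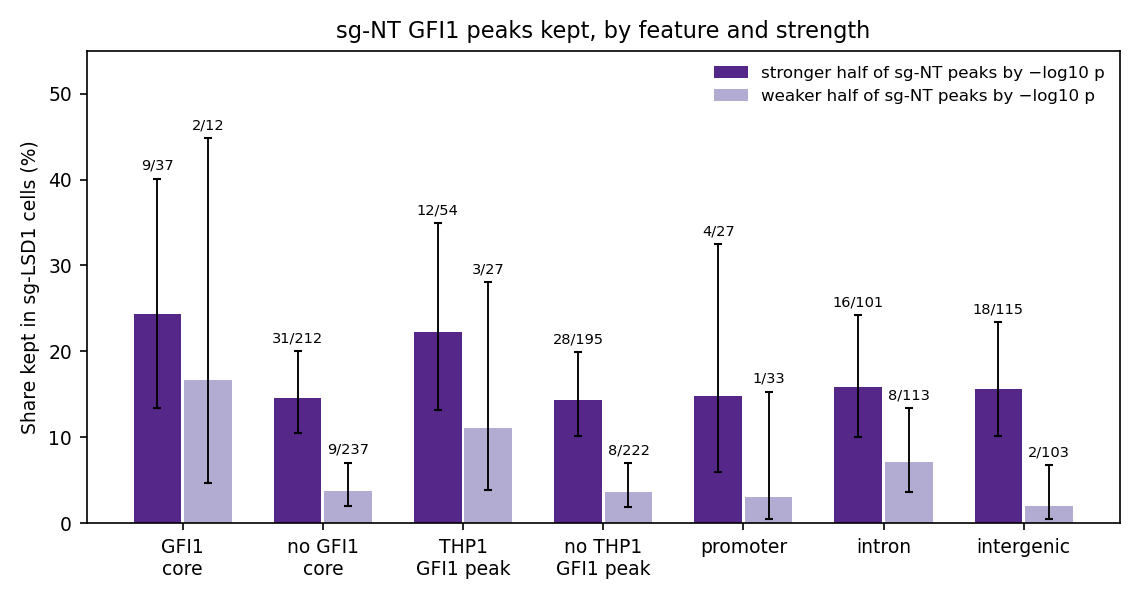
Share of sg-NT GFI1 peaks that were kept in sg-LSD1 cells (vertical axis, percent, with 95% Wilson intervals as bars and the counts above them), by core, THP1 overlap and place, for the stronger and the weaker 50% of the list by p-value. At either strength the share is higher with the GFI1 core (24.3% against 14.6%, and 16.7% against 3.80%), with intervals that overlap.

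The strongest sg-NT only peaks had folds in the range of the kept sites that followed SPTAN1. TIGAR, a p53-induced regulator of glycolysis, had a promoter peak (chromosome 12, 4320712 to 4321221) whose fold was 28.1 from 40 fragments. CEBPE, a transcription factor of late neutrophil development, had a peak 6372 bp from its start, with a fold of 24.1 from 38 fragments. Both lay at a THP1 GFI1 peak too. CRY2, a repressor of the circadian clock, was the nearest gene to a peak with a fold of 22.6 from 34 fragments. The peak in NR1H2, the oxysterol receptor LXR beta, had a fold of 20.8 and the one in CLEC16A a fold of 20.7. The next had a fold of 19.2 and lay 206287 bp from the nearest start, that of MYLIP, a ubiquitin ligase for the LDL receptor. Others lay near CHST6, with a fold of 19.0, and at the promoters of FNBP1 with 18.1 and of IFT46 with 17.6. These 9 peaks and the wide peak of the chromosome 21 cluster are the 10 strongest of the class by p-value, and all 10 lay at an LSD1 peak.

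The strongest sg-LSD1 only peak lay between genes on chromosome 18 from 35432613 to 35433847, was 1235 bp wide and had a fold of 17.8 from 36 fragments. The nearest start, 54598 bp away, was that of INO80C, a subunit of a chromatin remodeler. The intronic peak of PKHD1 had a fold of 15.5 from 23 fragments and that of ZNF322 a fold of 14.9 from 22. The peak in MEF2C, a transcription factor of muscle and blood cells, had a fold of 12.9 and lay 6517 bp from a start. VHL, the ubiquitin ligase subunit that degrades hypoxia-inducible factors, had an intronic peak with a fold of 11.9 from 24 fragments, and WWP2, another ubiquitin ligase, one with a fold of 11.0 from 25 fragments. These latter peaks lay at THP1 GFI1 peaks and hold the GFI1 core shown above. The others of the 10 strongest were in CRYBG1, in S100Z, in MTA3, which belongs to the NuRD repressor complex and had a fold of 8.87, and in MACO1, with a fold of 10.9. Of the 10, 3 lay at an LSD1 peak, those in PKHD1, S100Z and MTA3.

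Lists of genes were read for peaks within 100 kb of a start. Of all 19676 protein-coding genes, 1378 (7%) had a sg-NT peak within this distance and 402 (2.04%) a sg-LSD1 peak. Of 34 blood transcription factors, 10 had a sg-NT peak, among them CEBPE, GFI1, GFI1B, ID1, ID2, ID3, LMO2, SPI1 and ZFPM1. This list was chosen with earlier results of these data known, and it was not tested against the 7% of all genes. The peaks of all 10 were sg-NT only, and 0 of the 34 genes had a sg-LSD1 peak. At the 2.04% of all genes, a list of 34 would hold few sg-LSD1 peaks or none, so nothing follows from this 0. The peak nearest to GFI1 itself lay 58008 bp from its start, in an intron of EVI5, with a fold of 11.4 from 16 fragments. The peak nearest to GFI1B lay 17679 bp from its start, with a fold of 7.58 from 10 fragments and a GFI1 core. ID2 and ID3, which inhibit basic helix-loop-helix factors, had promoter peaks with folds of 8.27 and 8.24, each from 11 fragments and each also at a THP1 GFI1 peak. ZFPM1, the partner of GATA1 known as FOG1, had an intronic peak with a fold of 6.89. LMO2, a bridging protein of the GATA1 and TAL1 complex, had a peak with a fold of 4.12 from 5 fragments. Except for CEBPE and GFI1, these folds were under 10, a range in which 5.87% of all sg-NT peaks were kept.

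The other lists were read in the same way, beside the same shares of all protein-coding genes, 7% with a sg-NT peak and 2.04% with a sg-LSD1 peak. No list was tested against these shares, and lists this short would hold few peaks or none at them. Of 12 genes of the LSD1-CoREST complex, 0 had a peak of either library within 100 kb, and GSE1 was the nearest gene to a sg-NT only peak 173727 bp from its start, with a fold of 6.04. Of 28 genes of red cell proteins, 2 had a sg-NT peak. They were SLC25A37, the mitochondrial iron carrier mitoferrin, with a fold of 9.15, and ANK1, ankyrin of the red cell membrane, with a fold of 4.13. Both peaks were sg-NT only and at an LSD1 peak. Of 12 megakaryocyte genes, GP1BB, a subunit of the von Willebrand factor receptor, had a sg-NT only promoter peak with a fold of 6.31, and SELP, which encodes P-selectin, had a sg-LSD1 only peak within 100 kb. Of 15 neutrophil and monocyte genes, S100A8 and S100A9, neighbouring genes of the calprotectin proteins, had a sg-NT only peak within 100 kb, and 0 had a sg-LSD1 peak. Of 16 growth control genes, 4 had a sg-NT peak. BCL2L1, CISH and E2F5 had a sg-NT only one, and BCL2L11 was the only gene of any list with a kept site. The share of all genes with a kept site within 100 kb is not given here, so nothing follows from it for the lists.

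No test was made on the counts of peaks per chromosome, and the chromosomes named here are examples. Chromosome 12 held 37 sg-NT only peaks, 8 sg-LSD1 only peaks and 0 kept sites, while 10.2% of all sg-NT peaks were kept. Chromosome 6 held 5.62% of the sg-NT peaks and 9.38% of the sg-LSD1 peaks, and chromosome 13 held 1.20% (6 peaks) and 5.00% (8 peaks). Since K562 cells have an abnormal number of copies of many chromosomes, counts per chromosome are given as they are in the lists, and their cause was not tested.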

How the data were processed

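GFI1 ChIP-seq peaks of sg-NT and sg-LSD1 K562 cells (1 library each) were compared, with LSD1 peaks of sg-NT cells and THP1 peaks of GFI1 and SPI1 as references. Input and mouse H3K4me1 libraries were not analysed here. Per the methods, Trim Galore 0.6.1 was used by the authors for trimming, Bowtie2 2.5.4 for mapping to GRCh38 and Picard 3.1.0 for removal of duplicates. Peaks were called by library (MACS2 2.2.9.1, p-value threshold 1e-05), and the ENCODE blacklist was subtracted. Whether the input was the control in MACS2 is not given in the sources used here. The deposited fold is the ratio of pileup to local background, each with a pseudocount of 1. The deposited p-value and q-value of each peak are on a −log10 scale. The deposited score was not used.

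Fragments and background at each summit were solved from fold and p, with a whole number for 498 of 498 and 160 of 160 peaks (tolerance 0.01 in −log10 p). No read totals were used. Genes and places came from GENCODE 44, with promoter meaning within 1000 bp of a protein-coding transcript start, then exon, intron or intergenic. Motif cores were searched on both strands in 50 bp at the summit. Shares have 95% Wilson intervals. With 1 library a side no test was made. The members, gene lists and rules were chosen with earlier results of these data known. Genes named are the nearest to the 10 strongest peaks of each class by −log10 p, to the 3 kept sites with the highest and the lowest fragment ratio, and those of the gene lists. Exceptions are named in the text. A gene and 2 sequences that the rules name are not reported here. The alternatives were stricter thresholds, other definitions of overlap, promoter and window, a shorter core and the main chromosomes alone. The scripts were tested on simulated data. Python 3.11.15, numpy 2.4.6, scipy 1.17.1, pandas 2.3.3, pysam 0.24.0, samtools 1.23.1 and matplotlib 3.10.9 were used.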

Additional observations from a re-analysis of the deposited data

How the results depend on the processing

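No paired analysis was possible because the 2 conditions compared have 1 library each and share no numbered replicates. Of 56 alternatives over 24 results, 34 stayed inside the 95% interval of the value reported, among them the stricter thresholds and the definitions of overlap for the share of kept peaks. With the strongest 150 peaks of each list, the share kept was 22% from both sides, since both lists then have the same length. With promoters of 5000 bp, the promoter share was 27.5% of kept, 25.7% of sg-NT only and 28.4% of sg-LSD1 only peaks, in another order than at 1000 bp. In windows of 200 bp, the GFI1 core was in 39.2%, 20.8% and 30.3% of the classes in the same order and the GATA core in 45.1%, 39.1% and 33.0%. The ETS core, an alternative added after the data were seen, was then in 25.5%, 14.1% and 24.8%, so that the kept class passed the sg-LSD1 only class. The intervals of the sg-NT only class (11.2 to 17.6) and of the sg-LSD1 only class (17.6 to 33.6) then just overlapped. The flanks of the sg-NT only class held the ETS core in 9.62% of windows of 200 bp. The shorter core AATC was in 58.8%, 45.4% and 57.8% of 50 bp windows, against 31.4%, 28.1% and 30.3% in the flanks. The share of sg-NT only peaks at LSD1 was 83.8% when only peaks with a −log10 p of 8 or more were used and 68.9% when summits had to be within 200 bp. With the same limit of 8 on −log10 p, the median width of sg-NT only peaks was 334.5 bp and their median fold 7.63, and the median fold of sg-LSD1 only peaks was 7.13. The weakest peaks rest on 5 fragments in sg-NT cells and 6 in sg-LSD1 cells, and the classes hold only sites that passed the threshold.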
